A study of Homo sapiens with 6 samples.

Results

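The RNAs described here are those of 7 heat shock protein genes, namely the HSP70 genes HSPA8, HSPA1A and HSPA1B, the HSP90 genes HSP90AA1 and HSP90AB1, the co-chaperone gene DNAJA1 and the mitochondrial chaperonin gene HSPD1. For each gene, every cluster of eCLIP reads that overlapped its interval on GRCh37 on the strand of the gene, by 1 nt or more, was taken, whatever its enrichment. Of the clusters called in Angel1 immunoprecipitation (IP) replicate 1, 78 of 102843 lay in these genes, with 77 of 96960 in Angel1 IP replicate 2 and 16 of 5717 in the FLAG-only control IP. HSPA8, HSPA1B, HSP90AA1, HSP90AB1, HSPD1 and DNAJA1 held clusters in both Angel1 replicates, whereas HSPA1A held 0 clusters in any library. No cluster lay on the opposite strand of any of the genes.

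Angel1 is a relative of the CCR4 deadenylase that binds the cap-binding protein eIF4E, and eCLIP was used to ask which transcripts it contacts. In eCLIP, protein is cross-linked to RNA by UV light, RNA fragments that come down with the protein are sequenced (the IP library), and fragments of the same size taken from lysate that was not immunoprecipitated serve as the input library. The 6 libraries were paired as IP and input, with 2 such pairs from cells with FLAG-Angel1 and 1 pair from the FLAG-only control. All came from the HEK293 line Flp-In T-REx, derived from human embryonic kidney and carrying a site for tetracycline-inducible constructs. Before harvest, tetracycline was present at 5 ng/mL over 24 h, cells were given 400 mJ/cm2 of UV light at 254 nm, and FLAG antibody (M2) was used for all IPs. Tagged Angel1 was expressed close to the level of the endogenous protein. The GEO labels give FLAG-Angel1 as genotype for the control too, while the study's methods describe control cells with no FLAG fusion protein. The methods also mention a sample that received no UV light, and the labels mark none as such. Nothing states whether the replicates came from separate cultures.

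Heat shock proteins of these families fold newly made and damaged proteins using ATP. HSP70 proteins bind exposed hydrophobic stretches of their clients, J-domain proteins bring clients to HSP70 and stimulate its ATPase, and HSP90 proteins act later on partly folded clients such as kinases and steroid receptors. HSPD1 (HSP60) forms the barrel-shaped chaperonin of the mitochondrial matrix from a precursor made in the cytosol. HSPA8 and HSP90AB1 are expressed constitutively at high levels, HSP90AA1 and DNAJA1 are also expressed in unstressed cells and rise on heat shock, and HSPA1A and HSPA1B, a pair of neighbouring intronless genes with nearly the same coding sequence, are the classical stress-induced HSP70 genes.

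Heat shock factor 1 acts on such genes through inverted repeats of nGAAn, and the promoter sequences show which of the 7 genes carry this letter pattern close to their start. RefSeq promoters (GRCh38.p14, from 250 bases before to 50 after the start) were found for all 7 genes. They were searched for GAANNTTC and TTCNNGAA, each of which reads the same on both strands and can overlap the other. Only 1 promoter sequence was searched for each of the 7 genes, so any other start of a gene was not covered. GAANNTTC was present in 4 of the 7 promoters and in 6.77% of 35116 promoters of the table, TTCNNGAA was present in 2 of the 7 and in 7.74% of the table, and either pattern was present in 4 of the 7 and in 13.5% of the table. HSPA8 held 4 matches, all before the start, DNAJA1 held 3, of which 1 lay wholly before the start, and HSPA1A and HSPA1B held 1 each. The windows of 30 bases below hold 1 match, or overlapping matches, before the start of each of these 4 genes, with matched letters in capitals, on the strand of the gene.
HSPA8, chr11:123062162-123062191, minus strand: TTCTGGAAGGTTCtaagatagggtataaga
HSPA1A, chr6:31815437-31815466, plus strand: GAATATTCccgacctggcagcctcatcgag
HSPA1B, chr6:31827633-31827662, plus strand: GAATATTCccgacctggcagcctcatcgag
DNAJA1, chr9:33025075-33025104, plus strand: GAAGATTCcacgagcgccgggaagccgcgc
The window of HSPA8 lies 55 to 26 bases before the start and holds both patterns in overlap. HSPA1A and HSPA1B carry the same 30 bases, 106 to 77 and 105 to 76 bases before their starts, and their promoters were identical at 277 of 299 aligned bases (92.6%). The window of DNAJA1 spans 198 to 169 bases before the start and begins with its match. These matches are descriptions of the genes, since eCLIP reads RNA and not promoters. Sequences of the clusters themselves were not analysed here, because no genome of the build of the cluster lists was used.

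Each cluster carries the authors' log2 fold of IP over input reads and a P for it, and a cluster with a P past the threshold of 0.05 and a log2 fold above 0 is called enriched below. The read numbers behind these values were recovered from the values themselves. The library sizes that returned the authors' P were 3396701 IP and 722085 input reads in Angel1 replicate 1, 2543630 and 2812210 in Angel1 replicate 2, and 209788 and 3249250 in the control. The fewest IP reads with which a cluster over 10 input reads could be called enriched were 94 for replicate 1, 21 for replicate 2 and 3 for the control. Given the library sizes, these correspond to log2 folds of 1.0, 1.22 and 2.22, so that the smallest fold that could be called there was alike in the Angel1 replicates and larger in the control. With 1 control library, and with clusters of a gene that are no replicates of each other, no test between libraries was possible, and values of the libraries are set side by side.

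Without regard to depth, clusters in the heat shock protein genes were enriched more often than all clusters of the same Angel1 IP. In replicate 1, 42 of 78 were enriched (53.8%, Wilson 95% interval 42.9% to 64.5%), where 11.7% of all clusters of that library were. In replicate 2, 73 of 77 were enriched (94.8%, 87.4% to 98.0%), where 40.7% of all clusters were. The control had 15 enriched clusters among 16 (93.8%, 71.7% to 98.9%), where 91.8% of all its clusters were enriched, so that the share in the control was near its background. These intervals cover counting error only, as do all intervals given here, and they treat clusters as independent. In replicate 1, 34 of the 78 clusters lay in HSP90AA1, and joining abutting clusters left 58, so the intervals can be too narrow. At the stricter threshold of 0.001, 15, 68 and 6 clusters passed, against 4.22%, 17.0% and 64.5% of all clusters of the respective libraries.

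The median log2 fold of these clusters was 1.10 for Angel1 replicate 1, 2.99 for Angel1 replicate 2 and 2.75 for the control, against 0.57, 1.73 and 5.20 over all clusters of each library. Without regard to depth, the median cluster in these genes stood at percentile 69.2 of its library in replicate 1 and 89.7 in replicate 2, but at percentile 17.6 in the control. Heat shock clusters were among the deeper ones, with a median of 83 IP and 9 input reads in replicate 1 and 71 and 9 in replicate 2. Over all clusters with recovered reads (53484 of 102843 and 92128 of 96960), these medians were 25 and 2 and 8 and 2. The control clusters rested on a median of 6 IP reads over 11 input reads. Over all control clusters with recovered reads, these medians were 4 and 2, and the control was not split by input reads below.

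**Figure D1:**
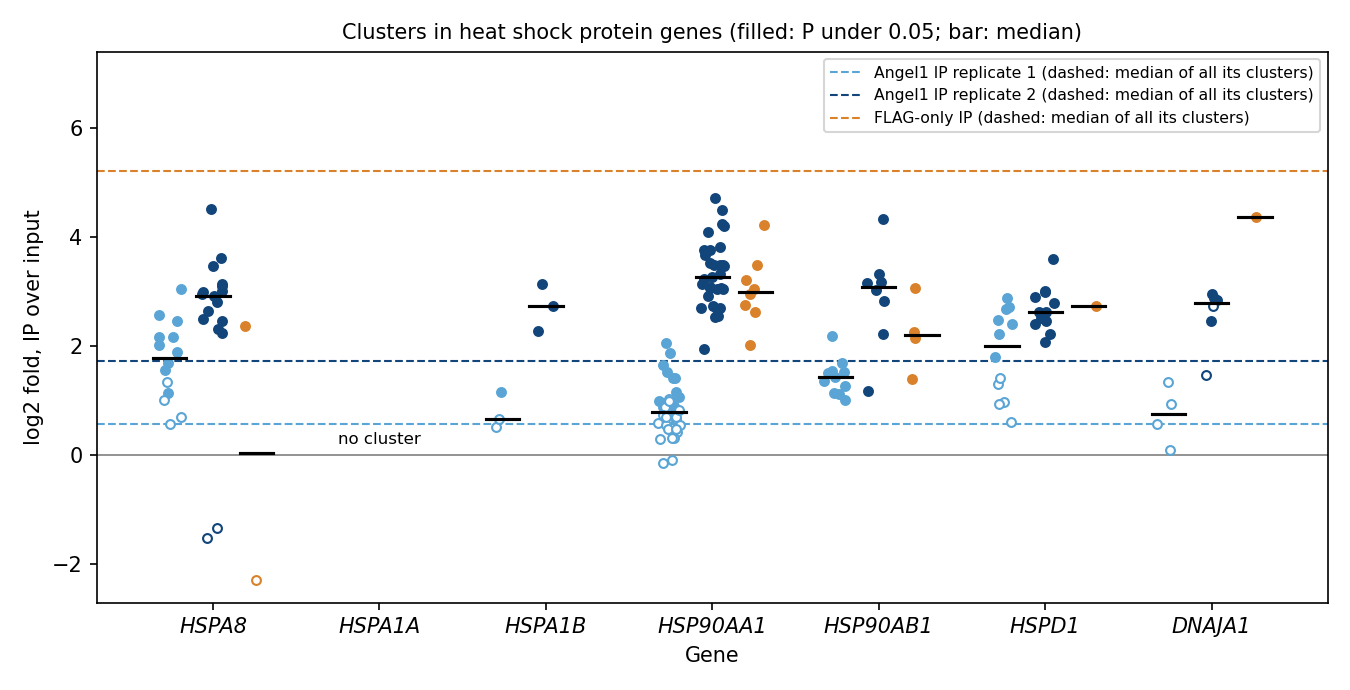
Log2 fold of IP over input (y axis) of every cluster in the 7 genes (x axis), with 1 point per cluster, filled where the authors' P passed 0.05, a bar at the median of each gene and library, and a dashed line at the median of all clusters of the library. Clusters of Angel1 replicate 2 lie mostly above those of replicate 1, and all 16 control clusters lie below the control's own median of 5.20.

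A cluster with more reads passes the threshold more easily, and the share of enriched clusters was therefore also read at like input reads. Only clusters with recovered reads and a log2 fold above 0 entered, also where all clusters are named. In replicate 2, 12 of 14 heat shock clusters with 1 to 4 input reads were enriched (85.7%, all clusters 34.1%), as were 29 of 29 with 5 to 9 input reads (all clusters 62.9%) and 32 of 32 with 10 or more (all clusters 84.3%). In replicate 1, the share was above the background for 1 to 4 input reads (13 of 20, 65.0%, all clusters 15.4%), near it for 5 to 9 (10 of 23, 43.5%, all clusters 39.6%) and below it for 10 or more (19 of 33, 57.6%, all clusters 71.2%). The median log2 fold followed the same pattern. In replicate 1 it was 2.10 in these genes against 1.29 over all clusters for 1 to 4 input reads, but 1.02 against 1.04 for 5 to 9 and 0.91 against 1.25 for 10 or more. In replicate 2 it was 2.86 against 1.95, 3.11 against 1.73 and 2.96 against 1.80 in the same classes. Hence heat shock clusters lay above all clusters in every class of replicate 2. In replicate 1, 76 clusters had a log2 fold above 0. The 23 and 33 of the deeper classes lay at or below all clusters of like input in their median. Most clusters with 10 or more input reads in replicate 1 lay in HSP90AA1, where 13 of all 34 clusters were enriched. The value of that class thus leans on 1 gene and does not describe each of the genes.

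Among the HSP70 genes, HSPA8 encodes the constitutive HSC70, which also uncoats clathrin-coated vesicles. HSPA8 (chr11:122928200-122932844, minus strand) held 14 and 17 clusters in Angel1 replicates 1 and 2 and 2 in the control, of which 10, 15 and 1 were enriched. The log2 fold ran from 0.57 to 3.05 in replicate 1 with a median of 1.79, and from -1.52 to 4.51 in replicate 2 with a median of 2.92. Nearly all clusters lay toward the 3′ end of the gene, from 2005 nt to 4393 nt after the 5′ end of the interval, with 1 cluster of replicate 2 at 817 to 829 nt. Replicate 1 covered 996 nt and replicate 2 covered 887 nt, of which they shared 743 nt.

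HSPA8 held 2 reproducible peaks, defined as regions where an enriched cluster of replicate 1 past the stricter threshold of 0.001 met one of replicate 2. The log2 fold and reads given for a peak are those of its cluster with the highest log2 fold in each replicate. The first, chr11:122930181-122930277, had a log2 fold of 3.05 in replicate 1 (78 IP over 2 input reads, -log10 P 4.30) and 3.14 in replicate 2 (64 over 8 reads, -log10 P 11.3), and no control cluster overlapped it. It was the only reproducible peak in the 7 genes whose log2 fold reached 3 in each replicate. The second, chr11:122928451-122928627 near the 3′ end, reached 1.90 in replicate 1 and 4.51 in replicate 2. Over it lay the enriched control cluster of HSPA8, chr11:122928541-122928587, with a log2 fold of 2.37 from 3 IP and 9 input reads. The replicate 2 cluster that overlapped it, chr11:122928510-122928587, stood at 3.62, and the replicate 1 cluster at 1.90. The control value thus lay between those of the replicates, from few reads.

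HSPA8 also held the clusters most depleted in the IP. In replicate 2, chr11:122928785-122928830 stood at -1.33 and chr11:122930075-122930089 at -1.52, and the second control cluster, chr11:122928795-122928843, stood at -2.29 at nearly the place of the first. No cluster of replicate 1 was called at either place. At a log2 fold of 0 or below the reads are known only as a ratio in lowest terms, which was 3 IP to 227 input reads for the control cluster. RefSeq lists 3 small nucleolar RNA genes within HSPA8 (SNORD14C, SNORD14D and SNORD14E), which guide ribosomal RNA methylation and are cut from its introns. Whether these clusters lie on them was not tested, since their positions on GRCh37 were not used. RefSeq also lists the small nucleolar RNA gene SNORA105B as overlapping HSPD1, and WDR20 as overlapping HSP90AA1, with strand not considered. Whether clusters of HSPD1 or HSP90AA1 lie on these was not tested either.

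**Figure D2:**
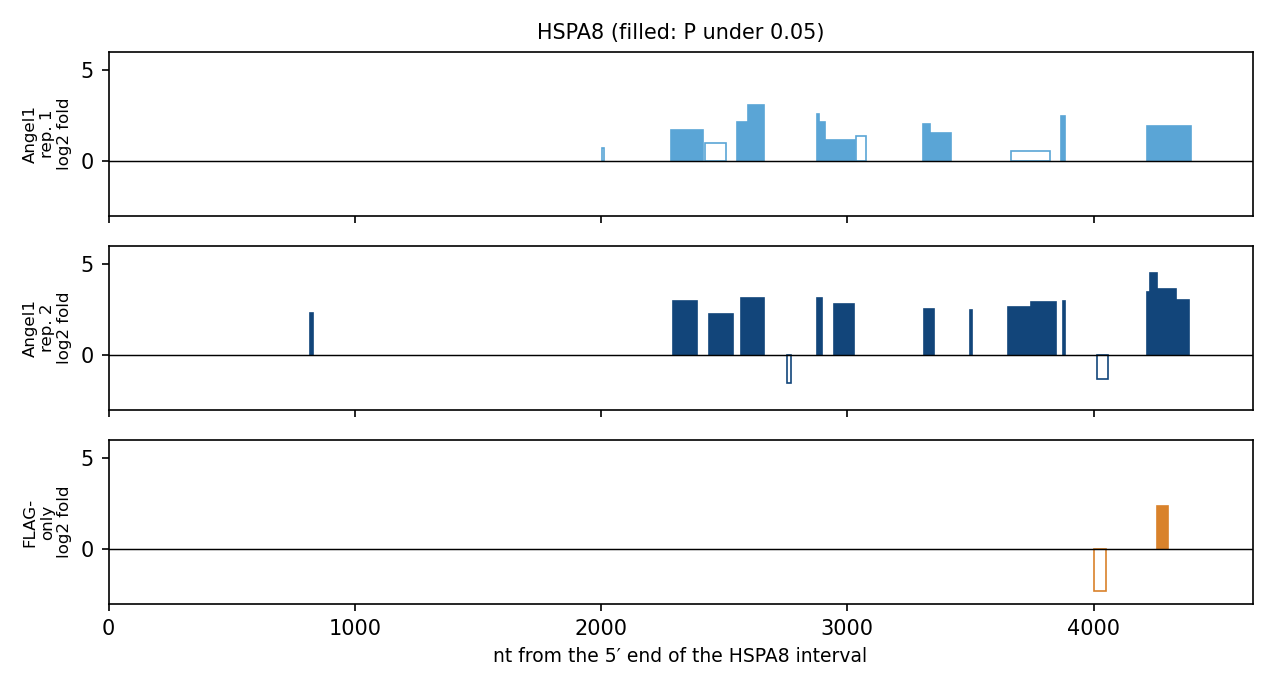
Clusters along HSPA8 in the Angel1 replicates and the FLAG-only control, with nt from the 5′ end of the interval on the x axis and the log2 fold as the height of each box, filled where the authors' P passed 0.05. Boxes of both replicates share most of their positions after 2005 nt, and boxes below 0 appear in replicate 2 and in the control.

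The stress-inducible HSP70 pair differed in whether clusters were listed at all. HSPA1A (chr6:31783291-31785719, plus strand) had 0 clusters in the 3 libraries, and HSPA1B (chr6:31795512-31798031, plus strand) had 3 in each Angel1 replicate and 0 in the control. Both genes code for the same protein with nearly identical sequence, and reads from one can map to the other. Which of the 2 genes the reads came from cannot be told apart here. How reads that map to both were treated is not stated in the sources used here. A lack of clusters in HSPA1A, or in a stretch of HSPA1B, is therefore not evidence that no reads came from it. In HSPA1B, 1 of 3 clusters was enriched in replicate 1 and 3 of 3 in replicate 2.

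The clusters of HSPA1B lay in 2 stretches, 22 to 273 nt and 1860 to 2124 nt from the 5′ end, with 1586 nt between them that held none. The 5′ stretch was a reproducible peak, chr6:31795534-31795785, with a log2 fold of 1.16 in replicate 1 (388 IP over 37 input reads, -log10 P 5.63) and 2.74 in replicate 2 (157 over 26 reads, -log10 P 24.2). It held more IP reads than any other cluster of the 7 genes in replicate 1. The 2 clusters of the 3′ stretch had log2 folds of 0.51 and 0.66 in replicate 1, neither enriched, and of 3.14 and 2.28 in replicate 2, both enriched.

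HSP90AA1, the inducible cytosolic HSP90 alpha, held the most clusters of the 7 genes, with 34 and 31 in Angel1 replicates 1 and 2 and 8 in the control. Of these, 13, 31 and 8 were enriched. The median log2 fold was 0.79 in replicate 1 (range -0.15 to 2.05), 3.27 in replicate 2 (1.94 to 4.71) and 3.0 in the control (2.01 to 4.22). Each of the 32 clusters of replicate 1 that overlapped a cluster of replicate 2 had the lower log2 fold, by a median of 2.53. The interval of the gene is 59012 nt long (chr14:102547075-102606086, minus strand), and all Angel1 clusters lay between 52716 and 58077 nt from its 5′ end. Where in this interval the transcripts start was not analysed here, so these distances do not give positions along the mRNA.

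Positions in HSP90AA1 were shared to a large extent between replicates, with 1132 nt common to the 1337 nt of replicate 1 and the 1297 nt of replicate 2. The control clusters covered 374 nt, of which 305 nt were also covered in an Angel1 replicate, and they held 3 to 8 IP reads each. Both reproducible peaks, chr14:102550829-102550901 and chr14:102551018-102551219, were free of control clusters. The first had a log2 fold of 1.88 in replicate 1 (208 IP over 12 input reads, -log10 P 5.42) and 4.71 in replicate 2 (142 over 6 reads, -log10 P 31.0). The second had 1.42 and 4.49 at its highest clusters. In replicate 1 that cluster was 3 nt wide, and the widest cluster of the peak, of 106 nt, stood at 0.90.

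HSP90AB1, the constitutive HSP90 beta, held 11 and 8 clusters in Angel1 replicates 1 and 2 and 4 in the control, all of them enriched. The interval is chr6:44214848-44221614 on the plus strand. The median log2 fold was 1.43 (1.01 to 2.19) in replicate 1, 3.09 (1.19 to 4.32) in replicate 2 and 2.20 (1.40 to 3.06) in the control. In replicate 1, 11 of 11 clusters were thus enriched in HSP90AB1 and 13 of 34 in HSP90AA1, a difference that was not tested, and in replicate 2 both genes had every cluster enriched.

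HSP90AB1 held 4 reproducible peaks, the most of the 7 genes. The strongest by the lower of its values, chr6:44220783-44220877, had a log2 fold of 1.53 in replicate 1 (177 IP over 13 input reads, -log10 P 3.80) and 3.15 in replicate 2 (169 over 21 reads, -log10 P 29.2), with no control cluster over it. Of the others, chr6:44219482-44219550 was also free of control clusters, while chr6:44218221-44218335 and chr6:44221347-44221451 each lay over an enriched one. At chr6:44221347-44221451, which lies 6499 to 6603 nt from the 5′ end, the log2 fold was 1.68 and 1.19 in Angel1 replicates 1 and 2 and 1.40 in the control, so that the control value fell between those of the replicates.

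The 4 control clusters of HSP90AB1 had log2 folds of 2.25 (chr6:44217192-44217198), 2.15 (chr6:44218266-44218305), 3.06 (chr6:44219157-44219209) and 1.40 (chr6:44221378-44221436). They rested on 4, 6, 7 and 7 IP reads over 13, 21, 13 and 41 input reads. At the first of these places, 2344 to 2350 nt from the 5′ end, no Angel1 cluster was called.

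**Figure D3:**
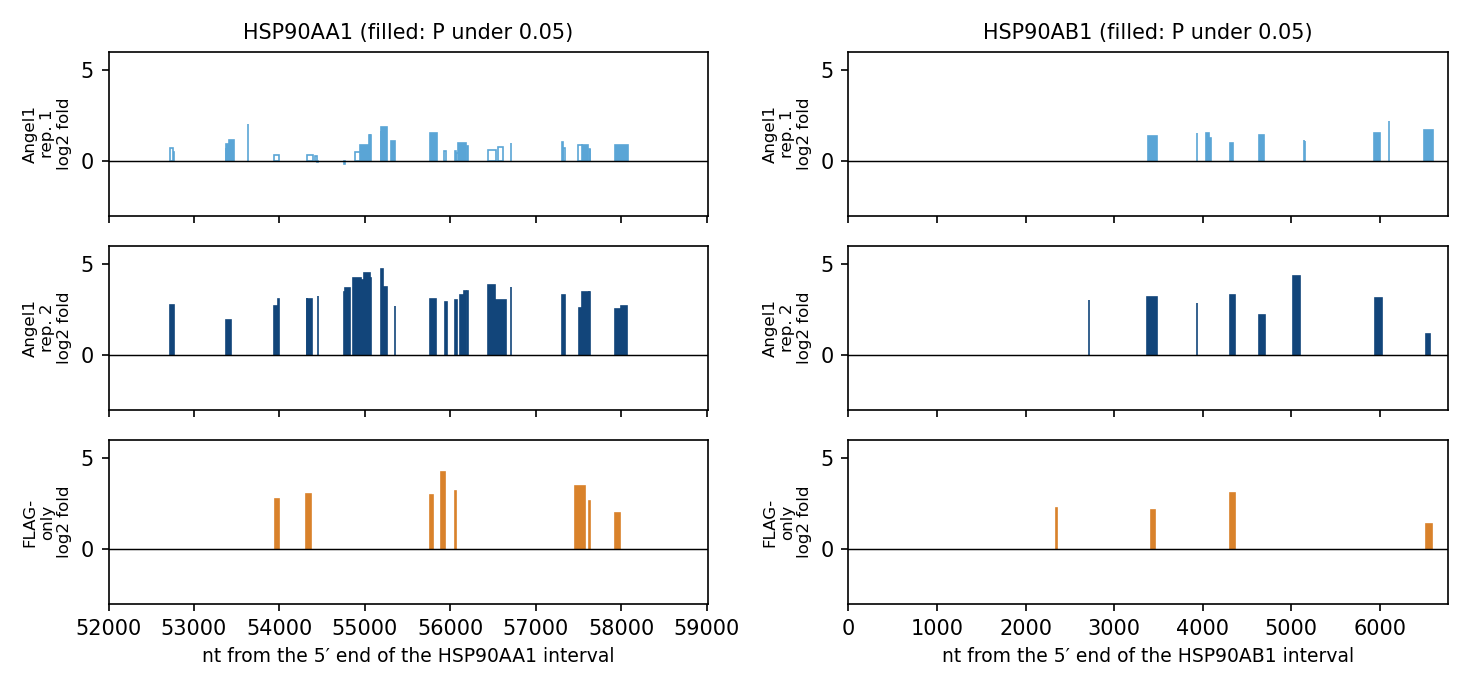
Clusters along the last 7 kb of the HSP90AA1 interval (left) and along HSP90AB1 (right), with nt from the 5′ end on the x axis and the log2 fold as the height of each box, filled where the authors' P passed 0.05 (very narrow boxes show only their outline). Filled boxes cover the same parts of HSP90AA1 in replicate 2 that hold mostly low or unfilled boxes in replicate 1, and control boxes fall largely within them.

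DNAJA1, a J-domain partner of HSP70 (chr9:33025209-33039905, plus strand), held 4 clusters in replicate 1, none of them enriched, and 6 in replicate 2, of which 4 were enriched. The median log2 fold was 0.75 (0.09 to 1.35) in replicate 1 and 2.79 (1.47 to 2.95) in replicate 2. Read numbers were the lowest of the 6 genes with clusters, at 9 to 25 IP reads per cluster in replicate 1 and 5 to 20 in replicate 2. DNAJA1 had no reproducible peak.

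The cluster of DNAJA1 with the highest -log10 P in replicate 1 was chr9:33026473-33026539, with a log2 fold of 1.35 from 24 IP and 2 input reads (-log10 P 0.52). In replicate 2 it was chr9:33036572-33036669, with 2.88 from 20 and 3 reads (-log10 P 3.74). The control cluster, chr9:33026486-33026559, had a log2 fold of 4.37 from 4 IP and 3 input reads (-log10 P 3.39) and overlapped the former. Clusters of DNAJA1 lay close to the 5′ end, 91 to 1330 nt from it, and again from 9102 nt to 11809 nt.

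HSPD1 (chr2:198351308-198364639, minus strand) held 12 clusters in each Angel1 replicate, of which 7 were enriched in replicate 1 and 12 in replicate 2, with median log2 folds of 2.01 (0.61 to 2.88) and 2.62 (2.07 to 3.60). The 1 control cluster, chr2:198353181-198353216, had 2.73 from 3 IP and 7 input reads. Clusters were spread along the gene from 55 nt to 11578 nt from its 5′ end, with gaps of up to 3034 nt.

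Both reproducible peaks of HSPD1 lay near its 5′ end and away from the control cluster. The stronger, chr2:198363500-198363575, had a log2 fold of 2.88 in replicate 1 (242 IP over 7 input reads, -log10 P 8.77) and 2.62 in replicate 2 (50 over 9 reads, -log10 P 7.67). The other, chr2:198364505-198364584, began 55 nt from the 5′ end and had 2.47 (313 over 12 reads, -log10 P 10.1) and 2.07 (76 over 20 reads, -log10 P 9.01). At both, replicate 2 had the lower log2 fold, in contrast to most places in the 7 genes.

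**Figure D4:**
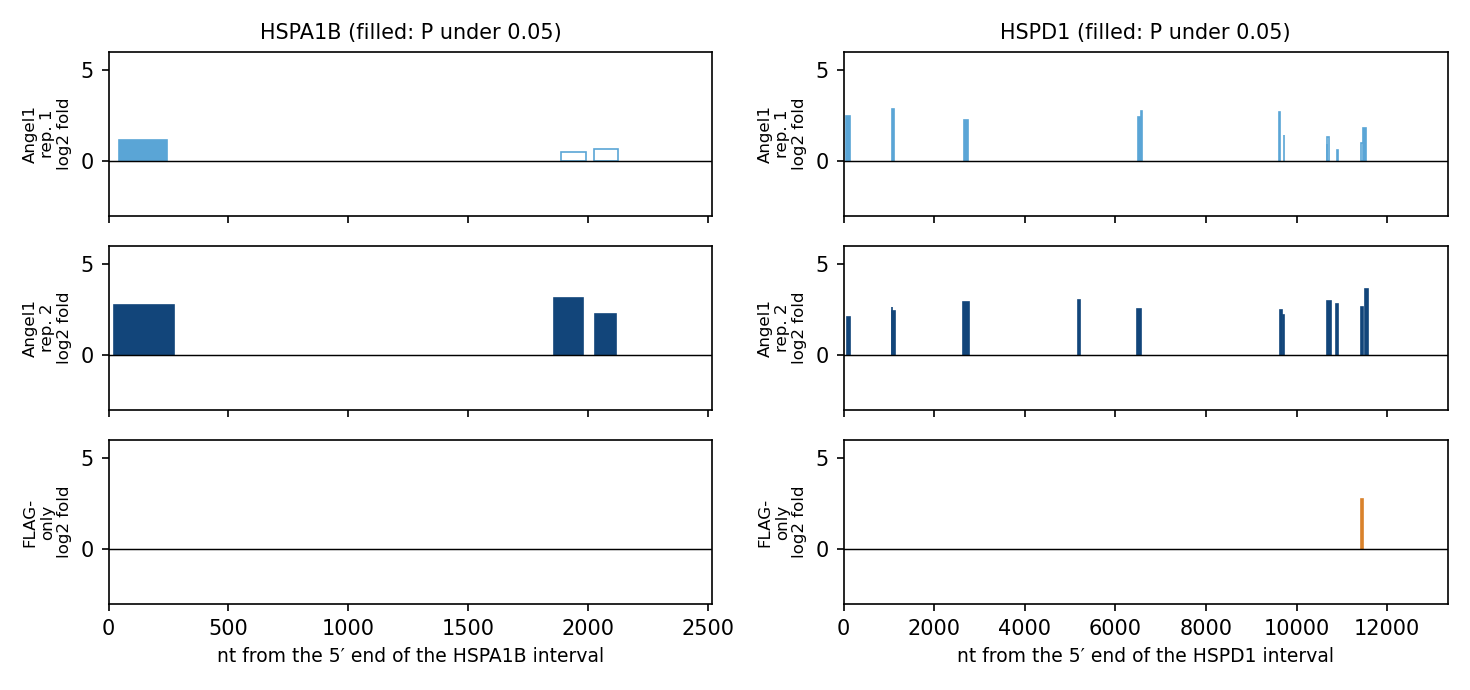
Clusters along HSPA1B (left) and HSPD1 (right), with nt from the 5′ end on the x axis and the log2 fold as the height of each box, filled where the authors' P passed 0.05 (very narrow boxes show only their outline). Both genes hold a filled box close to the 5′ end in both replicates, and only HSPD1 has a control box, at 11423 to 11458 nt.

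Summed over its clusters with recovered reads, each gene gave 1 log2 fold per replicate. HSPD1 had 2.10 in replicate 1 and 2.59 in replicate 2 (2.35 ± 0.35, mean ± SD, n = 2), and HSPA8 had 1.55 and 2.95 (2.25 ± 0.99). HSP90AA1 had 0.90 and 3.30 (2.10 ± 1.69), and HSP90AB1 had 1.43 and 2.74 (2.09 ± 0.93). HSPA1B had 0.99 and 2.72 (1.86 ± 1.23), and DNAJA1 had 0.61 and 2.62 (1.61 ± 1.42). In this order, every gene differed from the next by less than the SD of the replicates. Each of these genes was higher in replicate 2, so the SD includes a shift between the libraries that the genes share. It is not the error of a difference between genes, and the order was not resolved from these means. The order also changed with the replicate, since HSPD1 was the highest in replicate 1 and the lowest in replicate 2. HSP90AA1 was the second lowest in replicate 1 and the highest in replicate 2. The value of HSPA8 in replicate 2 dropped from 2.95 to 1.73 when its 2 depleted clusters were added at their reads in lowest terms. Reads that span abutting clusters can enter such sums more than once. A pair of neighbouring HSP90AA1 clusters of 4 and 5 nt, for example, each held 45 IP and 6 input reads.

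Over clusters with recovered reads, the difference between the replicates was larger in the input than in the IP. Per 1000000 library reads and 100 nt of cluster, the 7 genes held 58.9, 62.0 and 55.3 IP reads in replicate 1, replicate 2 and the control, and 25.6, 7.54 and 8.92 input reads. For HSP90AA1 these densities were 77.7, 105 and 58.6 in the IPs and 41.6, 10.6 and 7.65 in the inputs. Over all clusters with recovered reads, IP densities were 18.7, 10.5 and 97.1 and input densities 6.89, 2.65 and 6.69. Over those with 5 or more input reads, IP densities were 44.8, 19.2 and 54.8 and input densities 17.0, 5.20 and 12.9. The control IP density of the 7 genes, 55.3, was near that of these deeper clusters. Each library was measured over its own clusters, which were called where reads were dense, and the control density rests on 80 IP reads over 690 nt. The input library of replicate 1 was the smallest of the inputs, and its part in the lower folds of that replicate was not tested.

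**Figure D5:**
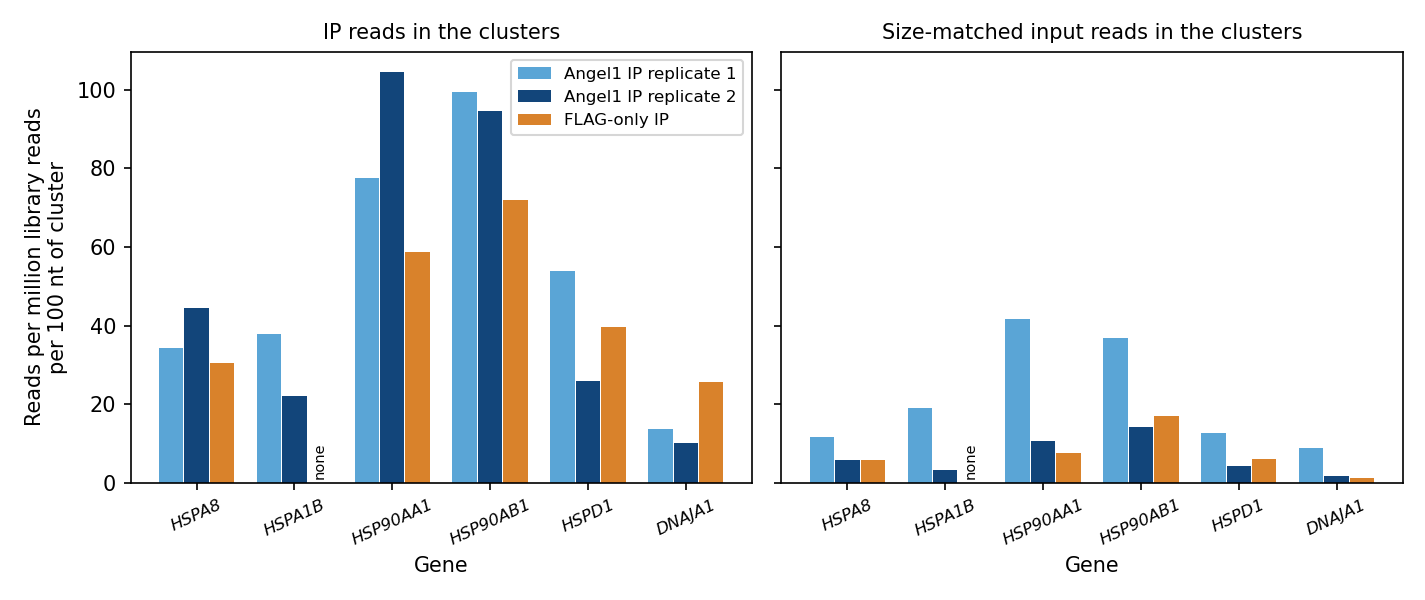
Reads per 1000000 library reads and 100 nt of cluster (y axis, from 0) in the IP (left) and the size-matched input (right) for each gene with clusters, 1 bar per library. Only clusters with recovered reads entered, which leaves out the depleted HSPA8 clusters of replicate 2 and the control, where input reads were many. Over the clusters used, IP bars of HSP90AA1 and HSP90AB1 are the tallest in all libraries. Input bars of replicate 1 exceed those of replicate 2 in every gene, and those of the control where it had such clusters.

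Clusters of the 2 replicates occupied much of the same sequence in these genes. The shares over all clusters given beside were not matched for depth, and clusters in these genes were among the deeper ones. Of the 78 clusters in replicate 1, 67 overlapped a cluster of replicate 2 (85.9%, all clusters 52.6%), and the 3121 nt covered in both made up 80.2% of 3890 nt for replicate 1 and 77.5% of 4028 nt for replicate 2. The log2 fold was higher in replicate 2 at 63 of these 67 (94.0%, all clusters 81.3%), by a median of 1.81 (all clusters 1.10). In all, 11 of the 2243 reproducible peaks lay in these genes, with 4 in HSP90AB1, 2 each in HSPA8, HSP90AA1 and HSPD1, and 1 in HSPA1B.

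Control clusters lay over part of this sequence. Here too, the shares over all clusters were not matched for depth. Of 739 nt of control cluster, 628 nt were also covered in an Angel1 replicate. Of the enriched Angel1 clusters in these genes, 8 of 42 in replicate 1 (19.0%) and 16 of 73 in replicate 2 (21.9%) overlapped an enriched control cluster, compared with 8.04% and 3.92% of all enriched clusters of the 2 libraries. Among the 11 reproducible peaks, 3 lay over an enriched control cluster, of which 1 was in HSPA8 and 2 were in HSP90AB1, and the other 8 did not. Over all 2243 reproducible peaks, 386 lay over an enriched control cluster (17.2%). The control IP held 209788 reads, and the absence of a control cluster at a place is not evidence that no control reads fell there. RefSeq also lists pseudogenes named for these genes, 20 for HSPA8, 22 for HSPD1 and 6 for DNAJA1 among them, and whether reads were shared with such copies was not tested.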

How the data were processed

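Clusters of eCLIP reads from 3 IP libraries were analysed, and the 3 input libraries entered only through them. Per the labels, reads went through Dr. Yeo's eCLIP pipeline, and the build was GRCh37 (hg19). The submitters' processing notes name cutadapt, STAR, SAMtools and UMI-tools, with roles and versions not given in the sources used here. For each cluster, the authors deposited a log2 ratio of IP to input reads, normalized by library size, and the −log10 P of that enrichment, which is 0 wherever the log2 fold is not above 0.

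Library sizes and the reads of each cluster were recovered as the whole numbers that returned both the deposited log2 fold and −log10 P (chi-square with Yates correction or two-sided Fisher's exact test), which gave 1 solution for 99.7%, 99.9% and 99.8% of clusters with a log2 fold above 0 and a P below 1 in Angel1 replicate 1, replicate 2 and the control. PCR duplicates bear on such reads, and intervals cover counting error only and treat clusters as independent. Overlaps needed 1 nt on the same strand. The recovery and the overlap step were tested on simulated data. Python 3.11.15, numpy 2.4.6, pandas 2.3.3, scipy 1.17.1, Biopython 1.88 and matplotlib 3.10.9 were used.

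The genes, their intervals and all lists were chosen with earlier results of these data known. All 7 genes were named. For each, the reproducible peak ranked first by the lower of its replicates' log2 folds was given in full, or else the cluster with the highest −log10 P in each replicate, and control clusters were listed where a gene held at most 5. Other peaks were named after their values were seen. Alternatives covered both P thresholds, the log2 fold, the overlap, the strand, the joining of abutting clusters, control overlap, each replicate alone, weighting, and leaving out HSPA1A and HSPA1B. Leaving out HSP90AA1 and other sums of reads were added after seeing the data. Exons, introns and UTRs, other chaperone genes and genes of like pattern were not analysed here, because no annotation of GRCh37 was used.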

Additional observations from a re-analysis of the deposited data

How the results depend on the processing

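Medians kept their sign under every alternative run, from 1.10 to 1.55 for Angel1 replicate 1, from 2.82 to 3.01 for Angel1 replicate 2 and from 2.31 to 2.95 for the control. At the threshold of 0.001, enriched clusters fell from 42 to 15 (19.2%, all clusters 4.22%) in replicate 1. In the control they fell from 15 to 6 (37.5%, all clusters 64.5%). At a log2 fold of at least 3, the count was 1 for Angel1 replicate 1 (1.28%), 37 for Angel1 replicate 2 (48.1%) and 6 for the control (37.5%). The share of all clusters at that fold was not computed, so these shares cannot be read as high or low. The median of all control clusters, 5.20, lies above that fold. Without HSP90AA1, which was left out after seeing the data, the share in replicate 1 was 65.9% rather than 53.8%. Reproducible peaks numbered 28 with the threshold set to 0.05 and 1 at a log2 fold of at least 3, and merged regions of 1 replicate alone numbered 15 without replicate 2 and 68 without replicate 1. Of 76 alternatives for these results, 62 stayed within 1.5 times the count or within the spread used, 14 moved further and 0 reversed. Some of the 62 could not move, since no cluster lay on the opposite strand or reached past an interval. The control also held no cluster in HSPA1A or HSPA1B to leave out. Only medians could be labelled reversed. The 24 alternatives for sums of reads per gene stayed within the SD of the replicate medians, 1.34 on the log2 scale. This SD rests on 2 values and is wide because they lie far apart, at 1.10 and 2.99. Even the drop of HSPA8 in replicate 2 from 2.95 to 1.73 stayed within it. No paired analysis was possible because the control is 1 library, so that the groups share fewer than 2 replicate numbers, and no result comes from a test between groups. Each IP is already set against its own input in the fold. Depth was lowest for the control IP, with 209788 reads, whose clusters in these genes held 3 to 8 IP reads each where reads were recovered.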
